A study of Rattus norvegicus with 6 samples.

Results

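Infusion of dDAVP for 5 d was compared with infusion of vehicle in the inner medulla of the rat kidney, across all genes that an array measured. The inner medulla lies deepest in the kidney and holds the last stretch of the collecting ducts. dDAVP (desmopressin) is an analogue of the antidiuretic hormone vasopressin and acts mainly on the vasopressin V2 receptor. The 4 arrays of the comparison, 2 labelled dDAVP and 2 labelled vehicle, were chosen by their titles from 6 arrays in all. Of the 28524 probe sets, 14168 named genes were followed, each through a single probe set.

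All rats were male, pathogen-free Sprague-Dawley rats kept on a fixed food ration with free access to water. In the vehicle group saline was infused for 5 d at 1 µl/h, and in the dDAVP group dDAVP for 5 d at 40 ng/h, both under the skin from an osmotic minipump implanted in the neck. A further group of 2 arrays, called withdrawal here, came from rats whose minipump was taken out after the same dDAVP infusion under light enflurane anaesthesia and who then spent 3 h in metabolic cages. It entered the estimate of the spread, and its values stand beside some results. Total RNA of the whole inner medulla was hybridised to Affymetrix whole-transcript gene arrays. In such tissue, fewer cells of a type and less RNA per cell cannot be told apart. Whether the 2 arrays of a group stand for different rats is not in the labels, and the p-values therefore reflect array-to-array spread alone, which may be technical.

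In the principal cells of the collecting duct, vasopressin binds the V2 receptor (Avpr2), which raises cyclic AMP (cAMP) and activates protein kinase A. The kinase leads the water channel aquaporin-2 (Aqp2) to the apical membrane, and water then leaves through aquaporins of the basolateral membrane. Over days the hormone is known to raise the amount of aquaporin-2 protein. In the inner medulla it also acts on urea transporters and on the epithelial sodium channel, and the cells there hold organic osmolytes against the high salt and urea around them.

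After Benjamini-Hochberg adjustment, 0 of 14168 genes (0.0%) had p under 0.05, and the smallest adjusted p was 0.549 (limma). At an unadjusted p under 0.05, 81 genes (0.572%) were higher and 971 (6.85%) lower in dDAVP. Counts of list members at an unadjusted p are to be read against these shares. Of the 81 and 971 genes, 6 (0.0423% of all genes) were at least 1.5-fold higher and 25 (0.176% of all genes) at least 1.5-fold lower. After a cyclic loess normalization the counts were 251 higher (1.77%) and 215 lower (1.52%), with 8 genes at least 1.5-fold apart in each direction (0.0565% each). The vehicle arrays had median intensities of 182.1 and 174.6, the dDAVP arrays of 156.1 and 165.1, and the withdrawal arrays of 181.8 and 181.1. Over all genes the log2 difference had a median of -0.11 as deposited (-0.01 after loess). The share of genes below 0 was 77.9% as deposited and 52.4% after loess, so both scales are given. Across 10 classes of signal the median difference ran from -0.18 in the third class from the bottom to -0.02 in the brightest. The 2 groups did not overlap in 680 genes (4.80%) with dDAVP higher and in 5746 genes (40.6%) with dDAVP lower. The latter share was 71.0% in the second class from the bottom and 20.0% in the brightest. Both dDAVP arrays were the lowest of all 6 in 33.6% of genes, and in 8.83% after loess. The arrays did not resemble each other most within their groups. The largest correlation of a vehicle with a dDAVP array was that of vehicle replicate 1 with dDAVP replicate 2, and after loess 17 genes differed by more than 1 log2 between these arrays, against 115 genes between the vehicle arrays and 162 between the dDAVP arrays.

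**Figure D1:**
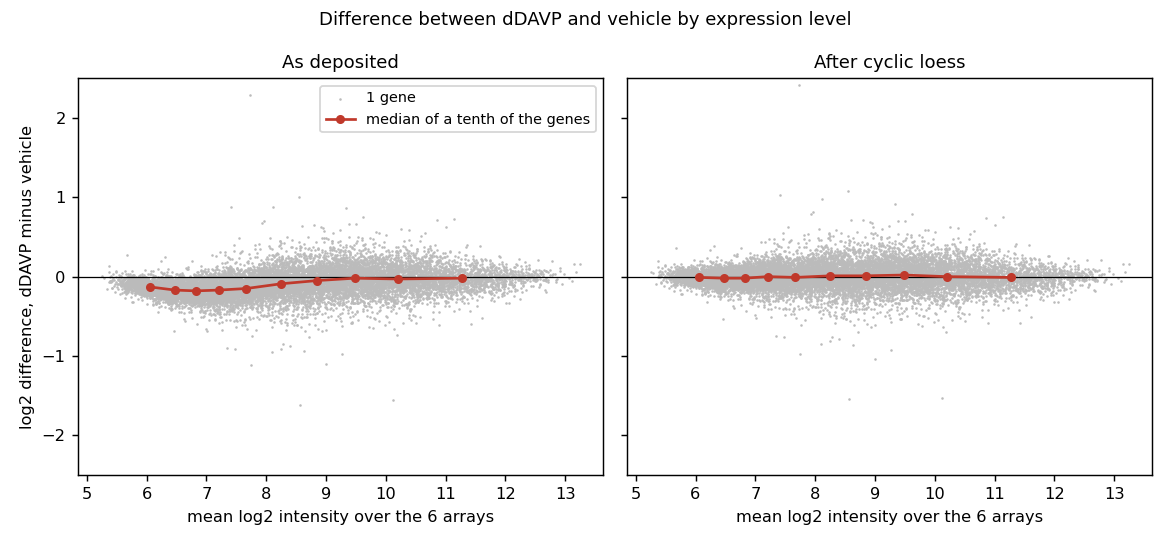
Log2 difference of dDAVP minus vehicle (y axis, means of 2 arrays each) against the mean log2 intensity over the 6 arrays (x axis) for 14168 genes, as deposited (left) and after cyclic loess (right); each grey point is a gene and red points are the medians of 10 classes of signal. As deposited the medians lie at -0.13 to -0.18 in the dimmest 4 classes and at -0.02 to -0.03 in the brightest 3, and after loess they lie between -0.02 and 0.02.

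Among the list members measured, no water channel, vasopressin receptor, urea transporter or sodium channel subunit was at an unadjusted p under 0.05. The differences ran in both directions. Aqp1 and Aqp3 were not among the measured water channels, so nothing is said of them here. Of the 11 measured vasopressin receptor and water channel genes, 0 were at an unadjusted p under 0.05, and the median difference was -0.11 as deposited and -0.01 after loess, the same as over all genes. Aqp2 had log2 intensities of 13.16 and 13.23 in vehicle and of 13.40 and 13.30 in dDAVP. Both dDAVP arrays were therefore above both vehicle arrays, and they were also above the withdrawal arrays at 13.23 and 13.14, an order found in 3.14% of all genes as deposited and in 8.06% after loess. The difference was 0.15 ± 0.10 (SE), with a 95% interval from -0.08 to 0.38 (limma, adjusted p = 0.558). The upper bound of that interval is below the 1.5-fold mark of 0.58 log2. The interval rests on a spread between arrays that may be technical, so it need not bound the difference between rats. Aqp2 also had the highest level of all genes, at a log2 of 13.24. Whether the signal at that level still follows the amount of RNA was not tested.

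Avpr2, the V2 receptor that dDAVP binds, had log2 intensities of 11.59 and 11.32 in vehicle and of 11.63 and 11.71 in dDAVP, a difference of 0.22 ± 0.16. Here too both dDAVP arrays were the highest of the 6. Avpr1a, the V1a receptor, lay the other way, at 10.03 and 10.12 in vehicle and 9.54 and 9.95 in dDAVP, a difference of -0.33 ± 0.15. Aqp4, a basolateral water channel, differed by -0.02 ± 0.21, and its vehicle arrays at 11.30 and 11.90 enclosed the dDAVP arrays at 11.63 and 11.53. Aqp6, an aquaporin of intracellular vesicles of intercalated cells, differed by 0.71 ± 0.35, carried by dDAVP replicate 1 at 8.78 against 7.97 in replicate 2, with vehicle at 7.32 and 8.02. Aqp5 differed by -0.25 ± 0.10 as deposited and by -0.11 after loess, and Aqp7 by -0.25 ± 0.13 and -0.09.

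The urea transporter genes carry urea across the duct and the vasa recta. Slc14a2, which encodes the transporters UT-A of the tubule, was at 11.79 and 12.55 in vehicle and at 12.47 and 11.86 in dDAVP, a difference of -0.01 ± 0.30 with a 95% interval from -0.72 to 0.71. The spread within each group was much wider than the difference, and the interval takes in a 1.5-fold difference either way. Slc14a1, the transporter UT-B of red cells and of the descending vasa recta, differed by 0.30 ± 0.28 and had 10.02 and 9.40 in vehicle against 10.06 and 9.95 in dDAVP.

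In the list of sodium transport and mineralocorticoid action, 0 of 17 measured genes were at an unadjusted p under 0.05, and the median difference was -0.06 as deposited and -0.03 after loess. The 3 subunits of the epithelial sodium channel differed by -0.21 ± 0.16 (Scnn1a), -0.17 ± 0.17 (Scnn1b) and -0.20 ± 0.14 (Scnn1g), and after loess by -0.04, -0.09 and -0.15. Scnn1g was at 9.50 and 9.32 in vehicle and 9.04 and 9.39 in dDAVP, so that only dDAVP replicate 1 lay below both vehicle arrays. Hsd11b2, the enzyme that keeps glucocorticoids from the mineralocorticoid receptor, differed by -0.34 ± 0.27, and Klk1, tissue kallikrein, by -0.16 ± 0.14. Sgk1, a kinase that stabilises the sodium channel, was at 11.37 and 11.82 in vehicle and at 11.92 and 11.47 in dDAVP. Its difference was 0.10 ± 0.20.

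**Figure D2:**
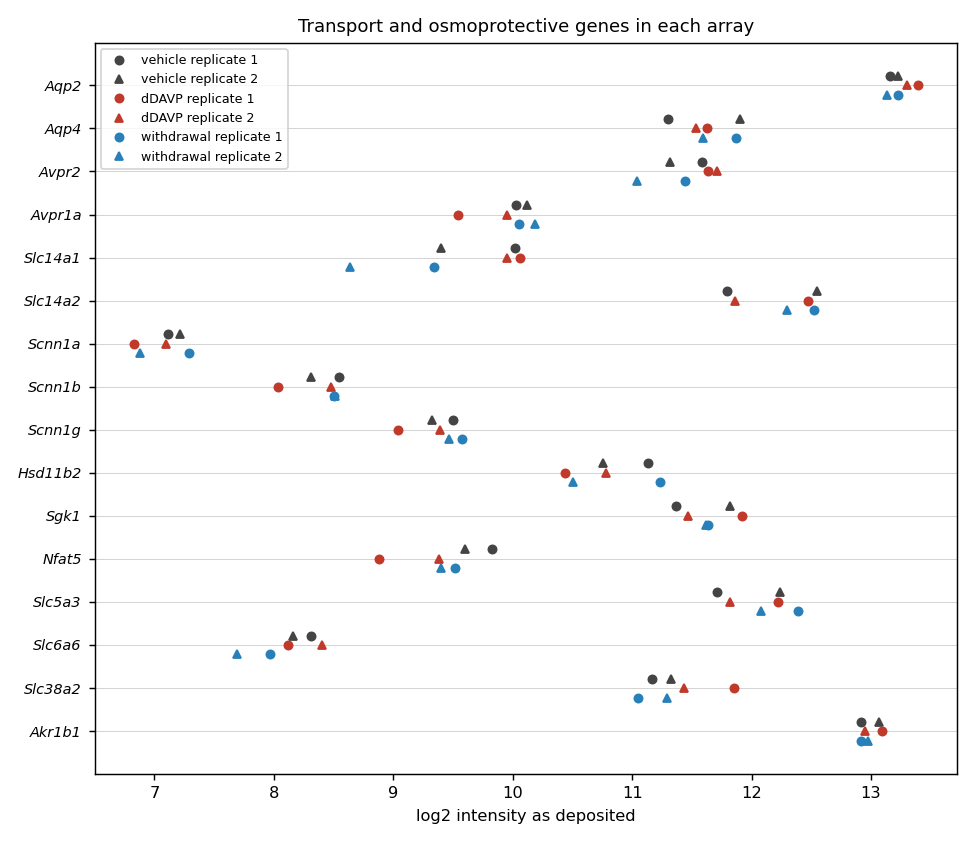
Log2 intensity as deposited (x axis) of 16 transport and osmoprotective genes (rows) in each of the 6 arrays; colour marks the group and shape the replicate. Aqp2 and Avpr2 show both dDAVP arrays above the vehicle arrays by small steps (differences 0.15 and 0.22), Nfat5 shows them below (-0.58), and in Slc14a2, Aqp4 and Sgk1 the groups overlap.

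Genes of cAMP signalling gave 0 higher and 2 lower members at an unadjusted p under 0.05 among 36 measured, with a median of -0.04 as deposited and 0.04 after loess. Pde3a, a phosphodiesterase that breaks down cAMP, was at 6.76 and 6.67 in vehicle and at 6.40 and 6.41 in dDAVP, a difference of -0.31 ± 0.11. Pkia, an inhibitor peptide of protein kinase A, differed by -0.28 ± 0.10. After loess these differences were -0.15 and -0.13, and neither was at an unadjusted p under 0.05 there. The share lower in the list as deposited, 5.56%, was below the 6.85% of all genes. Akap11 and Pde7a, an anchor protein of protein kinase A and a further phosphodiesterase, differed by -0.22 ± 0.11 and -0.29 ± 0.15.

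Immediate early genes, which cAMP and many other stimuli switch on within minutes, gave 2 higher and 2 lower of 33 measured at an unadjusted p under 0.05, 6.06% each way against 0.572% and 6.85% of all genes. Their median was 0.07 as deposited and 0.13 after loess, with 25 of 33 above 0 after loess (75.8%, against 47.6% of all genes). Dusp1, a phosphatase that ends MAP kinase signals, was at 10.33 and 10.44 in vehicle and at 11.21 and 10.64 in dDAVP, a difference of 0.55 ± 0.19 (limma, adjusted p = 0.549). Klf2, a transcription factor, was at 9.02 and 9.05 in vehicle and 9.35 and 9.20 in dDAVP, a difference of 0.24 ± 0.10. In both genes the dDAVP arrays lay above both vehicle arrays. Klf10, a transcription factor of the same family, lay below, at 9.17 and 9.29 against 8.72 and 8.90 (-0.42 ± 0.14), as did Plk2, a polo-like kinase, at 10.24 and 10.05 against 9.41 and 9.58 (-0.65 ± 0.22). The list's position rested on 1 array: relative to the vehicle mean after loess its median was 0.45 in dDAVP replicate 1 and -0.18 in dDAVP replicate 2. Without dDAVP replicate 1 the median of the list was -0.24 as deposited, without dDAVP replicate 2 it was 0.42, and without vehicle replicate 1 it was -0.07.

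Among osmoprotective genes, 0 of 9 measured members were higher and 1 was lower at an unadjusted p under 0.05. That member was Nfat5, the transcription factor that answers hypertonicity and drives genes for osmolyte uptake and synthesis. It was at 9.82 and 9.60 in vehicle and at 8.88 and 9.38 in dDAVP. Both dDAVP arrays were below the other 4, an order found in 33.6% of all genes. The difference was -0.58 ± 0.18 as deposited (adjusted p = 0.549, limma) and -0.54 after loess. The list's median was 0.03 as deposited and 0.09 after loess, with 8 of 9 members above 0 after loess, against 47.6% of all genes. This position rested on 1 array. Relative to the vehicle mean after loess the list's median was 0.18 in dDAVP replicate 1 and -0.01 in dDAVP replicate 2. Among genes that Nfat5 is known to drive, the myo-inositol transporter Slc5a3 differed by 0.04 ± 0.22, the taurine transporter Slc6a6 by 0.03 ± 0.15 and aldose reductase Akr1b1, which makes sorbitol, by 0.03 ± 0.10. These 3 were picked with their values in view. Slc38a2, an amino acid transporter, was at 11.17 and 11.33 in vehicle and 11.85 and 11.43 in dDAVP, a difference of 0.40 ± 0.17.

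Interferon response genes were the list with the lowest median after loess. Of 37 measured members, 8 (21.6%) were lower and 0 higher at an unadjusted p under 0.05, where 6.85% of all genes were lower. In 26 members (70.3%) both dDAVP arrays were below both vehicle arrays, against 40.6% of all genes. After loess the counts were 6 lower and 0 higher, against 1.52% of all genes lower, and in 22 members the groups did not overlap with dDAVP lower, against 16.0% of all genes. Both dDAVP arrays were the lowest of the 6 in 21 of 37 members after loess, against 8.83% of all genes. The list's median was -0.28 as deposited and -0.25 after loess. That a list of these genes lay low in dDAVP was known from earlier work on these arrays when the list was written, so these counts are a description and no independent support.

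The 8 members have different parts in the response. Irf1, a transcription factor that interferons induce, was at 8.70 and 8.85 in vehicle and at 8.21 and 8.33 in dDAVP (-0.51 ± 0.13). The sensors of foreign nucleic acid Ifih1 and Zbp1 came next. Ifih1, a cytosolic receptor of double-stranded RNA, was at 9.58 and 9.60 in vehicle and 8.94 and 9.08 in dDAVP (-0.58 ± 0.16). Zbp1, which binds nucleic acids in the Z form, was at 7.16 and 7.06 against 6.60 and 6.72 (-0.45 ± 0.10). In all 3 genes both dDAVP arrays were the lowest of the 6, an order found in 33.6% of all genes. Among the effectors, the guanylate-binding protein Gbp5 was at 9.87 and 9.51 in vehicle and 8.98 and 9.27 in dDAVP (-0.57 ± 0.17). Its relative Gbp2 was at 10.80 and 10.48 against 10.06 and 10.22 (-0.50 ± 0.20). The remaining members were Parp9 (-0.32 ± 0.11), Rtp4 (-0.45 ± 0.15) and Oas2 (-0.28 ± 0.10, and -0.12 after loess). Gbp2, Parp9, Rtp4 and Oas2 were named after their values were seen. Ifitm1, a membrane protein that restricts viral entry, was the member that was higher as deposited (0.14) and was likewise named after its value was seen.

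Many interferon response genes carry in their promoter an interferon-stimulated response element, to which interferon regulatory factors and the STAT complex bind. Of the 8 members, 5 have a promoter window in the RefSeq table used here (GRCr8, from 250 bases before to 50 bases after a start site), and 3 of these windows hold the motif searched, the letters GAAA, any 2 bases and GAAA again, on either strand. These 3 are printed to show the motif and where it stands in members that were low in dDAVP. Each line gives the 100 bases before the start site, 5′ to 3′ in the direction of the gene, with the match in capitals. The stretch of Ifih1 is chr3:67683969-67684068 on the minus strand, that of Gbp5 is chr2:233910899-233910998 on the plus strand, and that of Gbp2 is chr2:234005627-234005726 on the plus strand.
Ifih1: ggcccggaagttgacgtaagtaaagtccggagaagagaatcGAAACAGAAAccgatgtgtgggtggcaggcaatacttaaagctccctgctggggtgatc
Gbp5: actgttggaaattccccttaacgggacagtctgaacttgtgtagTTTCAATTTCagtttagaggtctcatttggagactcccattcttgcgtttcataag
Gbp2: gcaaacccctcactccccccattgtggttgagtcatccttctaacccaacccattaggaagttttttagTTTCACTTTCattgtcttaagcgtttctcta
The matches begin 59, 56 and 31 bases before the start site. In Ifih1 the letters stand in the direction of the gene and in Gbp5 and Gbp2 on the other strand. Of all 33469 windows, 3.92% hold the letters. Among measured genes with a window it is 417 of 11697 genes (3.57%), and among interferon response genes 16 of 27 (59.3%). The 401 genes with the letters outside the interferon list differed by a median of -0.13 (-0.02 after loess), against -0.11 (0.00 after loess) for the genes without them. Within the list, the 16 members with the letters had a median of -0.23 (-0.22 after loess) and the others of -0.23 (-0.19 after loess). The medians thus differed little with and without the letters, inside the list and outside it.

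**Figure D3:**
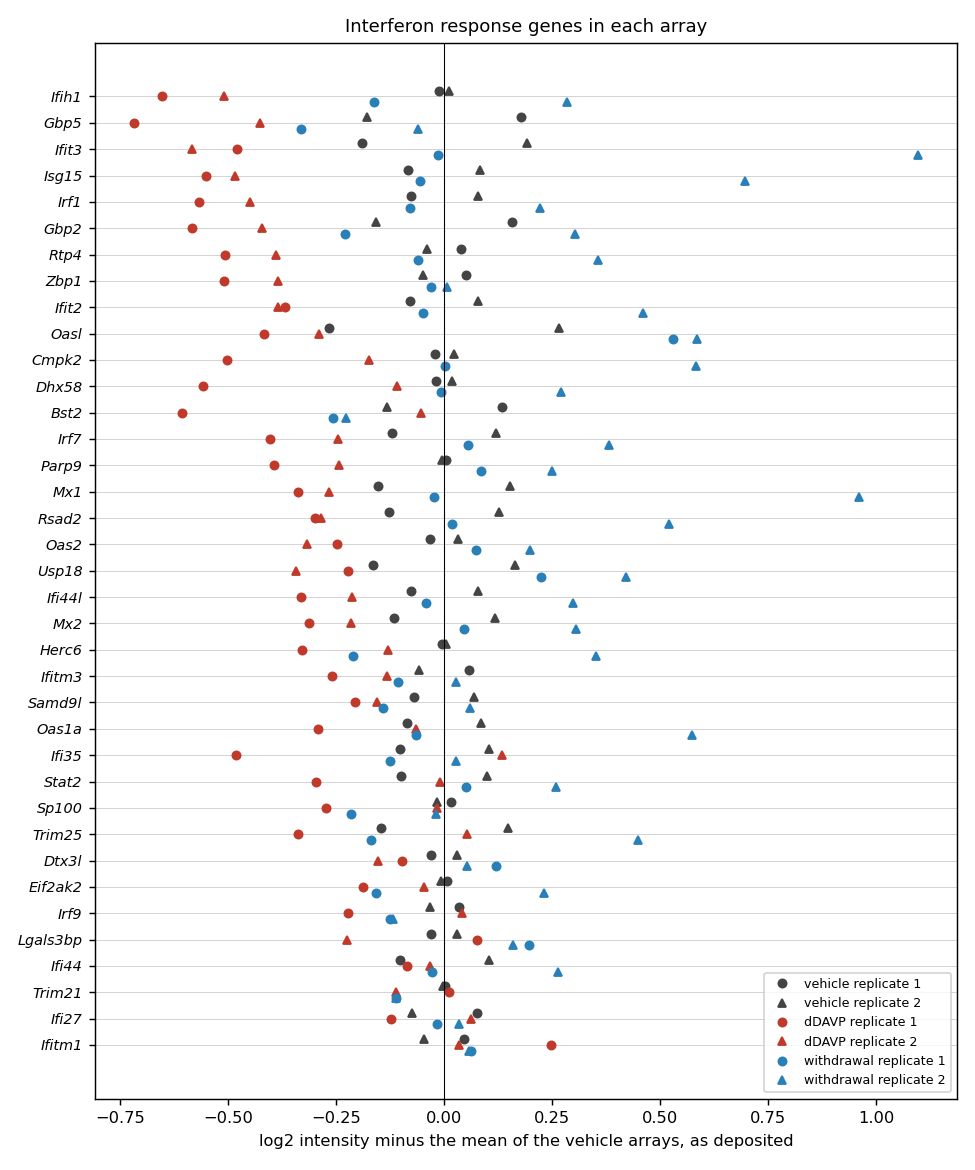
Log2 intensity of the 37 interferon response genes (rows) in each array minus the mean of the vehicle arrays, as deposited (x axis); colour marks the group, shape the replicate, and rows run from the lowest to the highest difference of dDAVP minus vehicle. Both dDAVP arrays lie left of both vehicle arrays in 26 rows, and withdrawal replicate 2 lies far to the right in several rows.

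The pattern was present in both dDAVP arrays. Relative to the vehicle mean after loess the list's median was -0.30 in dDAVP replicate 1, -0.18 in dDAVP replicate 2, -0.02 in withdrawal replicate 1 and 0.24 in withdrawal replicate 2. Without vehicle replicate 1 and dDAVP replicate 2, the arrays that stood apart, the list's median was -0.43 as deposited, where that of all genes was -0.11. Without any 1 of the 4 arrays the median after loess ran from -0.30 to -0.16. The number lower at an unadjusted p under 0.05 as deposited depended on the array left out. It was 6 of 37 (16.2%, against 3.54% of all genes) without vehicle replicate 1, and 9 (24.3%, against 9.35%) without dDAVP replicate 2. It was 3 (8.11%, against 2.11%) without dDAVP replicate 1. Leaving out vehicle replicate 2 gave 2 (5.41%), below the 10.6% of all genes. With the array medians subtracted, the list's median was -0.13, where that of all genes was 0.04.

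Other immune genes lay nearer to all genes once normalized by loess. Of 38 chemokine and cytokine genes, 0 were higher and 5 were lower, taken at an unadjusted p under 0.05 (13.2% lower, against 6.85% of all genes). After loess 2 were lower, against 1.52% of all genes. The list's median was -0.17 as deposited and -0.03 after loess. Cxcl13, which attracts B cells, was at 7.13 and 7.22 in vehicle and 6.57 and 6.58 in dDAVP, with withdrawal at 6.79 and 6.76. Its difference was -0.60 ± 0.09 (limma, adjusted p = 0.549), and it ranked first by p among the genes at least 1.5-fold lower. Ccl5, which attracts T cells, was at 9.73 and 9.57 against 9.37 and 9.04 (-0.45 ± 0.15, and -0.41 after loess). The inflammasome cytokine Il18 (-0.27 ± 0.09) and the eosinophil attractant Ccl24 (-0.33 ± 0.12) were at -0.11 and -0.17 after loess. Antigen processing genes gave 0 of 19 at an unadjusted p under 0.05 and a median of -0.10 as deposited and -0.05 after loess, led by the immunoproteasome subunits Psmb8 (-0.44 ± 0.21) and Psmb9 (-0.31 ± 0.16). Of 17 complement genes 2 were lower, C6 (-0.26 ± 0.09) and Cfd (-0.27 ± 0.10), at -0.11 and -0.13 after loess.

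Markers of immune cells are given beside these genes. Of 17 markers of T and natural killer cells, 2 were lower (11.8%, against 6.85% of all genes) and 0 higher at an unadjusted p under 0.05. They were Lck (-0.39 ± 0.14), a kinase of the T cell receptor, and Ncr1 (-0.27 ± 0.10), a receptor of natural killer cells. The median of the list was -0.32 as deposited and -0.15 after loess, and 15 of 17 were below 0 after loess (88.2%, against 52.4% of all genes). Summed over the markers, the intensity was 4884 and 3324 in vehicle, 3086 and 3092 in dDAVP, and 3064 and 4020 in withdrawal. Vehicle replicate 1 thus stood above the rest, and without it the median was -0.12 as deposited with 0 genes at an unadjusted p under 0.05. Cd8a, the coreceptor of cytotoxic T cells, was at 7.78 and 7.47 in vehicle and 7.09 and 7.39 in dDAVP. Of 17 markers of macrophages and dendritic cells 2 were lower, the integrin Itgam (-0.42 ± 0.11) and the scavenger receptor Cd163 (-0.44 ± 0.16). Their median was -0.16 as deposited and -0.05 after loess, and their summed intensity was 10648 and 14417 in vehicle and 13667 and 10599 in dDAVP. The part of these cells in the interferon and chemokine values was not tested.

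Genes of DNA replication and mitosis gave 7 lower and 0 higher of 51 at an unadjusted p under 0.05 (13.7%, against 6.85% of all genes). After loess 2 were lower, against 1.52% of all genes. The list's median level was 7.84, in the fifth signal class from the bottom, where 136 of 1417 genes were lower as deposited. The median difference of the list was -0.25 as deposited and -0.11 after loess. Sass6, which builds the cartwheel of new centrioles, was at 7.83 and 7.91 in vehicle and 7.29 and 7.22 in dDAVP, with withdrawal at 7.80 and 7.87, a difference of -0.61 ± 0.09. Gins1, of the replicative helicase, was at 7.83 and 8.13 against 7.28 and 7.35 (-0.67 ± 0.14), and its partner Mcm6 at 8.59 and 8.90 against 8.32 and 8.22 (-0.47 ± 0.17). Foxm1, a transcription factor of mitotic genes, differed by -0.24 ± 0.09 and by -0.13 after loess. In these 4 genes both dDAVP arrays were below the other 4, an order found in 33.6% of all genes. As deposited 49 of 51 members were below 0, where 77.9% of all genes were. After loess 42 were (82.4%, against 52.4% of all genes). The list nonetheless split more by array than by group. Its summed intensity was 13556 in vehicle replicate 1 and 12715 in dDAVP replicate 2, against 21352 in vehicle replicate 2 and 17228 in dDAVP replicate 1. Without vehicle replicate 2 its median was 0.09 as deposited, and without dDAVP replicate 1 it was -0.53. The share lower at an unadjusted p under 0.05 was above that of all genes without vehicle replicate 1 (12 genes, 23.5% against 3.54%) and without dDAVP replicate 1 (5 genes, 9.80% against 2.11%). It was below that of all genes without vehicle replicate 2 (3 genes, 5.88% against 10.6%) and without dDAVP replicate 2 (2 genes, 3.92% against 9.35%). Of 22 p53 target genes 1 was higher (4.55%) and 3 were lower (13.6%), against 0.572% and 6.85% of all genes. The cyclin Ccng1 was at 10.33 and 11.21 in vehicle and 11.65 and 11.35 in dDAVP (0.73 ± 0.28). The death receptor Fas was at 7.80 and 7.89 against 7.30 and 7.59 (-0.40 ± 0.12).

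Protein turnover genes lay on both sides. Of 66 ubiquitin ligases 2 were higher and 4 were lower, taken at an unadjusted p under 0.05, with a median of 0.00 as deposited and 0.05 after loess. Rnf167, a ligase of endosomes and lysosomes, was at 10.52 and 10.60 in vehicle and 10.90 and 10.96 in dDAVP, a difference of 0.37 ± 0.10, and Siah1 differed by 0.23 ± 0.09. Rnf6 (-0.43 ± 0.12) and Trim2 (-0.41 ± 0.13) were lower. Of 47 deubiquitinases 2 were higher and 2 lower. Josd1 was at 9.61 and 9.51 in vehicle and 10.05 and 10.04 in dDAVP, a difference of 0.48 ± 0.10. Usp21 differed by 0.29 ± 0.11, and Usp4 (-0.51 ± 0.15) and Usp48 (-0.24 ± 0.09) by the opposite sign.

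Of 38 proteasome genes 0 were higher and 2 lower. Pomp, the chaperone that assembles the core particle, was at 11.53 and 11.54 in vehicle and 11.05 and 11.14 in dDAVP (-0.44 ± 0.17). The catalytic subunit Psmb7 was at 12.05 in each vehicle array and at 11.81 and 11.80 in dDAVP (-0.24 ± 0.09). The median of the list was -0.09 as deposited and -0.07 after loess. Both dDAVP arrays were the lowest of the 6 in 11 of 38 members as deposited (28.9%, against 33.6% of all genes). After loess this order held in 12 of 38 members, against 8.83% of all genes. It also held after loess in 19 of 69 cytosolic and 13 of 62 mitochondrial ribosomal protein genes. With the array medians subtracted the median of the proteasome list was 0.06, where that of all genes was 0.04.

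Among 34 heat shock proteins the one at an unadjusted p under 0.05 was Dnaja3, a J-domain cochaperone of mitochondria. It was at 9.36 and 9.85 in vehicle, 8.60 and 8.66 in dDAVP, and 9.30 and 9.85 in withdrawal, a difference of -0.97 ± 0.23 (1.96-fold lower, limma, adjusted p = 0.549). It was the furthest from 0 among the lower genes named by rank. Of 62 mitochondrial ribosomal protein genes 0 were higher and 3 lower, with Mrps22 at -0.35 ± 0.13, Mrpl40 at -0.33 ± 0.12 and Mrps16 at -0.29 ± 0.12, and the median was -0.08 as deposited and -0.04 after loess. The 67 subunits of oxidative phosphorylation gave 0 genes in either direction and a median of 0.00 on both scales. Cytosolic ribosomal proteins likewise gave 0 of 69, with a median of -0.02. Of 30 aminoacyl tRNA synthetases 0 were higher and 2 lower, Pars2 (-0.28 ± 0.10) and Lars1 (-0.28 ± 0.10). Of 42 autophagy and lysosome genes 1 was higher, Map1lc3a, which coats autophagosomes, at 9.28 and 9.17 in vehicle and 9.54 and 9.55 in dDAVP (0.32 ± 0.09). Atg10, an enzyme of autophagosome formation, had the lowest difference of all genes (-1.62 ± 0.90). It rested on dDAVP replicate 1 at 5.98, since dDAVP replicate 2 at 8.93 lay between the vehicle arrays at 9.64 and 8.52.

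The list of cytochromes P450, flavin monooxygenases and conjugating enzymes held 1 higher (2.63%, against 0.572% of all genes) and 7 lower (18.4%, against 6.85%) of 38 measured genes. After loess 1 was higher and 4 were lower, where 1.77% and 1.52% of all genes were. The list's median level was 7.31, in the fourth signal class from the bottom, where 184 of 1416 genes were lower as deposited. Fmo5 was at 7.44 and 7.54 in vehicle and 8.0 and 8.73 in dDAVP (0.87 ± 0.23), and it was as high in withdrawal, at 8.56 and 8.45. Fmo2, of the same enzyme family, was at 8.51 and 9.03 in vehicle and 7.83 and 8.01 in dDAVP (-0.86 ± 0.24), with withdrawal at 8.43 and 7.88. Cyp2j4, an arachidonic acid epoxygenase, was at 8.11 and 7.86 in vehicle and 6.79 and 7.35 in dDAVP (-0.92 ± 0.27), with withdrawal at 7.70 and 7.04. Cyp39a1, an oxysterol hydroxylase, was at 7.82 and 7.84 against 7.54 in each dDAVP array (-0.29 ± 0.09). The list's median was -0.16 as deposited and -0.03 after loess, so that the members named stood apart from most of the list. Gstm1, a glutathione transferase, was at 11.23 and 10.90 in vehicle and 10.39 and 10.53 in dDAVP (-0.61 ± 0.17), and was the 1 gene of 32 in the oxidative stress list at an unadjusted p under 0.05. Gpx3, the secreted glutathione peroxidase, differed by 0.42 ± 0.17.

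Cholesterol synthesis and glycolysis gave 0 of 21 and 0 of 24 genes at an unadjusted p under 0.05. Sqle, squalene epoxidase, differed by -0.45 ± 0.27, with vehicle at 10.51 and 11.36 and dDAVP at 10.62 and 10.35. Slc2a3, a glucose transporter, was at 7.32 and 7.26 in vehicle and 7.5 and 7.42 in dDAVP. It differed by 0.17 ± 0.09 as deposited and by 0.33 after loess. Among 23 hypoxia responsive genes the carbonic anhydrase Car9 was lower (-0.36 ± 0.10, and -0.19 after loess), and Vegfa, the vascular growth factor, differed by 0.22 ± 0.11 and by 0.33 after loess.

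Genes of vesicle traffic, by which aquaporin-2 reaches the membrane, gave 0 higher and 3 lower of 60, with a median of -0.09 as deposited and -0.02 after loess. Snx10, a sorting nexin of endosomes, was at 8.75 and 8.68 in vehicle and 8.05 and 8.16 in dDAVP, with withdrawal at 8.64 and 8.85. The difference was -0.61 ± 0.11 (limma, adjusted p = 0.549). Exoc4, of the exocyst that tethers vesicles to the plasma membrane, was at 8.52 and 8.48 against 8.05 and 8.15 (-0.40 ± 0.09). Rab11fip2, an effector of recycling endosomes, was at 8.52 and 8.70 against 8.03 and 8.32 (-0.43 ± 0.15). In these 3 genes both dDAVP arrays were the lowest of the 6, an order found in 33.6% of all genes. Their differences after loess were -0.53, -0.31 and -0.35. Endosomal sorting genes gave 0 of 22.

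Of 37 junction and adhesion genes 1 was higher and 2 lower. Prkci, an atypical protein kinase C of cell polarity, was at 9.26 and 9.33 in vehicle and 9.78 and 9.57 in dDAVP (0.38 ± 0.11), while Marveld3, a tight junction protein, differed by -0.36 ± 0.14 and the connexin Gjb2 by -0.30 ± 0.10. Among 48 matrix proteins, proteases and inhibitors, Spink8, a Kazal-type protease inhibitor, was higher, at 7.42 and 6.52 in vehicle and 7.65 and 8.04 in dDAVP (0.87 ± 0.29). Sdc4, a heparan sulfate proteoglycan of the cell surface, was at 10.80 and 10.98 against 11.79 and 11.25 (0.63 ± 0.26). Col3a1, a fibrillar collagen, differed by -0.37 ± 0.15.

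Of 31 potassium channel genes 0 were higher and 4 lower (12.9%, against 6.85% of all genes). After loess 1 was lower, and 19 of 31 lay above 0 (61.3%, against 47.6% of all genes). The list's median level was 7.43, in the fifth signal class from the bottom, where 136 of 1417 genes were lower as deposited. Kcne3, a regulatory subunit that keeps basolateral potassium channels of epithelia open, was at 9.11 and 8.90 in vehicle, 7.91 and 8.58 in dDAVP and 8.85 and 8.98 in withdrawal (-0.76 ± 0.22, and -0.69 after loess). Kcne1, Kcnk3 and Kcnma1 differed by -0.24 to -0.27 as deposited and by -0.07 to -0.12 after loess. Of 31 endothelin, nitric oxide and purinergic genes 5 were lower (16.1%, against 6.85% of all genes) and 0 higher. The adenosine receptor Adora2b led them at -0.32 ± 0.10. The list's median level of 7.28 lay in the fourth signal class from the bottom, where 184 of 1416 genes were lower. After loess 0 of these 31 were at an unadjusted p under 0.05 in either direction. Prostaglandin genes gave 0 of 23, and circadian clock genes 0 of 17.

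Growth factors and receptors gave 0 higher and 5 lower of 47 (10.6%, against 6.85% of all genes), and 1 higher and 1 lower after loess. Hgf, hepatocyte growth factor of the interstitium, was at 7.35 and 7.45 in vehicle and 6.82 and 6.88 in dDAVP (-0.55 ± 0.13, and -0.38 after loess). Fgf7, keratinocyte growth factor, was at 7.32 and 7.93 against 6.75 and 6.70, with withdrawal at 8.13 and 7.29 (-0.90 ± 0.31). The list's median was nonetheless -0.04 as deposited and 0.06 after loess. Of 49 genes of the transforming growth factor, Wnt and Notch pathways 2 were lower (4.08%, against 6.85% of all genes), the transcriptional repressors Hes1 and Heyl. Hes1 was at 10.37 and 10.39 in vehicle and 10.02 and 10.03 in dDAVP (-0.36 ± 0.10, and -0.33 after loess), and Heyl differed by -0.27 ± 0.09, and by -0.10 after loess. Of 23 glucocorticoid responsive genes 1 was higher, Dusp1 (4.35%, against 0.572% of all genes), and 3 were lower (13.0%, against 6.85%). Among the lower was Fkbp5, a cochaperone of steroid receptors, at 8.42 and 9.05 against 8.23 and 8.17 (-0.54 ± 0.20).

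**Figure D4:**
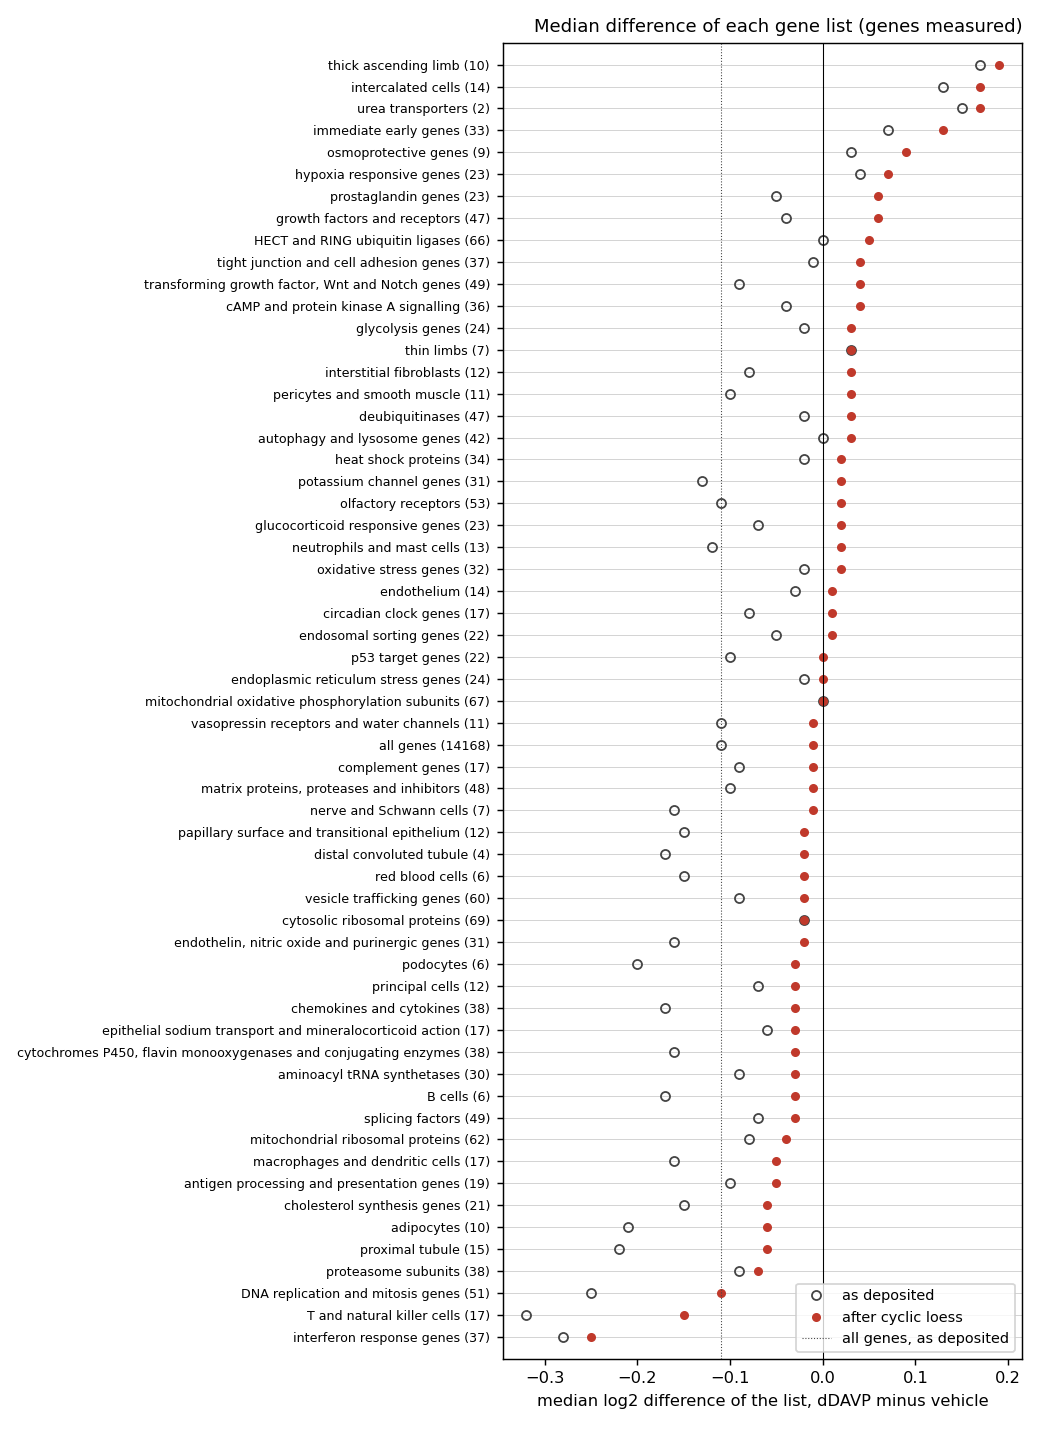
Median log2 difference of dDAVP minus vehicle (x axis) of each of 58 gene lists and of all genes (rows, with the number of genes measured), as deposited (open circles) and after cyclic loess (red). Interferon response genes have the lowest median after loess (-0.25), followed by T and natural killer cell markers (-0.15) and replication genes (-0.11), and the medians of thick ascending limb markers (0.19), intercalated cell markers (0.17) and the 2 urea transporters (0.17) are the highest.

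The tissue label was checked against cell markers. Markers of principal cells had a median log2 level of 10.78, though single markers ran from 7.07 to 13.24. Those of thin limbs had 12.02 (10.06 to 12.99), where the median over all genes was 7.96. Aqp2, the marker of principal cells, lay between 13.14 and 13.40. The summed intensity of the 12 principal cell markers was 31661 and 33722 in vehicle and 33808 and 32735 in dDAVP, and that of the 7 thin limb markers was 26884 and 31945 against 32044 and 27714. Neither list had a member at an unadjusted p under 0.05. Of the 14 intercalated cell markers Car2, carbonic anhydrase of the cytosol, was lower (-0.38 ± 0.14) while the list's median was 0.13 as deposited and 0.17 after loess. Slc4a1, their basolateral anion exchanger, was at 8.43 and 10.24 in vehicle and 10.59 and 9.58 in dDAVP. Markers of the thick ascending limb, which ends above the inner medulla, also had a median level above that of all genes, at 9.67 (7.04 to 11.89). Where their signal came from was not tested. The median difference of this list was 0.17 as deposited and 0.19 after loess. Umod, the most specific product of that limb, was at 9.98 and 10.03 in vehicle and 10.02 and 11.18 in dDAVP. Thus 1 dDAVP array carried its difference of 0.60 ± 0.40. Without vehicle replicate 1 and dDAVP replicate 2 the medians of these 2 lists were -0.29 (intercalated cells) and -0.23 (thick ascending limb). The summed intensity of the intercalated cell markers was 9263 and 12177 in vehicle and 10385 and 12053 in dDAVP.

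Proximal tubule markers gave 5 lower of 15 as deposited (33.3%, against 6.85% of all genes) and 0 after loess (against 1.52%). Most of them were dim, and their median was -0.22 as deposited and -0.06 after loess, with Hao2, a peroxisomal oxidase, at 9.17 and 8.91 in vehicle and 8.44 and 8.77 in dDAVP. Podocyte markers (6 measured, log2 levels 6.77 to 7.72) and B cell markers (6 measured, 6.02 to 8.06) gave 0 genes at an unadjusted p under 0.05. Olfactory receptors, which are not known as products of most kidney cells and are dim here, are given as a further view of dim genes. In 34 of 53 (64.2%) the dDAVP arrays were lower without overlap, near the 66.2% of the dimmest class of all genes, 3 (5.66%, against 6.85% of all genes) were lower at an unadjusted p under 0.05, and the median was -0.11 as deposited and 0.02 after loess. The markers of endothelium, pericytes and interstitial fibroblasts gave 0 genes at an unadjusted p under 0.05, with medians of 0.01, 0.03 and 0.03 after loess.

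Beyond the lists, genes were taken by rank among those whose groups did not overlap. Of the named genes, 10 were at least 1.5-fold higher without overlap, at differences of 0.59 to 0.87, and 6 of them were at an unadjusted p under 0.05. Fmo5, Spink8 and Ccng1 were among these 6 and are described with their lists above. Crk, an adaptor of tyrosine kinase signalling, was at 9.13 and 9.43 in vehicle and 10.19 and 9.69 in dDAVP, with withdrawal at 9.37 and 9.19 (0.66 ± 0.20). Gper1, a membrane receptor of oestrogen, was at 8.37 and 8.20 against 9.13 and 8.73 (0.64 ± 0.22). Zmym6, a zinc finger protein, was at 8.57 and 8.32 against 8.72 and 9.40, and it was at 9.36 and 9.34 in withdrawal. A further probe set of Zmym6 differed by 0.01. The other 4 were Cfap141, a protein of cilia, Arpc4, of the Arp2/3 complex that branches actin, Sdc4, and Gnrh1, the precursor of gonadotropin-releasing hormone. In each of these 4, dDAVP replicate 1 was well above dDAVP replicate 2, as in Arpc4 at 10.23 and 9.45 against 9.41 and 8.95 in vehicle. A further probe set of Gnrh1 differed by -0.09.

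The 12 lower genes named by rank differed by -0.97 to -0.60 and were all at an unadjusted p under 0.05. Besides Cxcl13, Sass6, Snx10, Gins1, Dnaja3 and Fmo2 they were Chchd5, Abhd3, Taf9b, Slc28a2, Pln and Slc5a7. Chchd5, a small protein of mitochondria, was at 10.40 and 10.54 in vehicle and 9.85 and 9.77 in dDAVP (-0.66 ± 0.12). Abhd3, a phospholipase, was at 9.49 and 9.57 against 8.79 and 9.02 (-0.62 ± 0.12). Slc28a2, a sodium-coupled nucleoside transporter, was at 7.81 and 8.20 against 7.23 and 7.45 (-0.66 ± 0.16), and Pln, the phospholamban that restrains the calcium pump of the reticulum, at 7.71 and 7.91 against 7.14 and 7.21 (-0.64 ± 0.16). Taf9b, a factor of transcription initiation, differed by -0.62 ± 0.14 and the choline transporter Slc5a7 by -0.68 ± 0.18. In 11 of the 12 genes both dDAVP arrays were the lowest of the 6. Most genes lower without overlap had this order, 4758 of 5746, so it largely follows from the choice. Over these 12 genes, which were chosen for their difference, the value after loess ran from -0.93 to -0.43.

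By rank after loess, a further 8 higher and 8 lower genes were named, all at least 1.3-fold apart on that scale. The higher ones had arrays close together, which the choice by smallest p favours. Vasn, an extracellular trap of transforming growth factor, was at 8.63 and 8.45 in vehicle and 9.13 and 8.95 in dDAVP (0.50 ± 0.11 as deposited). Hnrnph2, a splicing regulator, was at 9.36 and 9.55 against 9.86 and 10.03 (0.49 ± 0.12). Plekha1, which binds a phosphoinositide, was at 8.97 and 8.98 against 9.37 and 9.26 (0.34 ± 0.09), and Kctd10, an adaptor of cullin ligases, at 10.13 and 10.27 against 10.62 and 10.48 (0.35 ± 0.10). The others were Josd1, Ubald1 (0.39 ± 0.11), Rell1 (0.32 ± 0.10) and Spaca6 (0.40 ± 0.11). A dimmer probe set of Spaca6 differed by -0.29. In all 8 both dDAVP arrays were the highest of the 6, an order that 445 of the 680 genes higher without overlap had.

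Among the 8 lower genes, Dhx9, an RNA and DNA helicase, was at 8.60 and 8.63 in vehicle and 7.97 and 8.10 in dDAVP (-0.58 ± 0.09). Prim1, the primase that starts DNA strands, was at 10.07 and 10.24 against 9.49 and 9.69 (-0.56 ± 0.11), and Rfc2, of the clamp loader, differed by -0.47 ± 0.12. Neither of these replication genes was in the list of replication and mitosis. Tent5a, a poly(A) polymerase, was at 10.34 and 10.29 against 9.84 and 9.87 (-0.46 ± 0.09). Mnda, an interferon-inducible nuclear protein of myeloid cells, was at 7.45 and 7.46 against 6.84 and 6.93 (-0.57 ± 0.11), and Fcgr3a, an Fc receptor of natural killer cells and macrophages, at 8.41 and 8.21 against 7.63 and 7.91 (-0.54 ± 0.13). The others were Anapc10 (-0.46 ± 0.11), of the anaphase-promoting complex, and Kat6a (-0.54 ± 0.12), a histone acetyltransferase. In all 8 both dDAVP arrays were the lowest of the 6, an order that 4758 of the 5746 genes lower without overlap had.

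**Figure D5:**
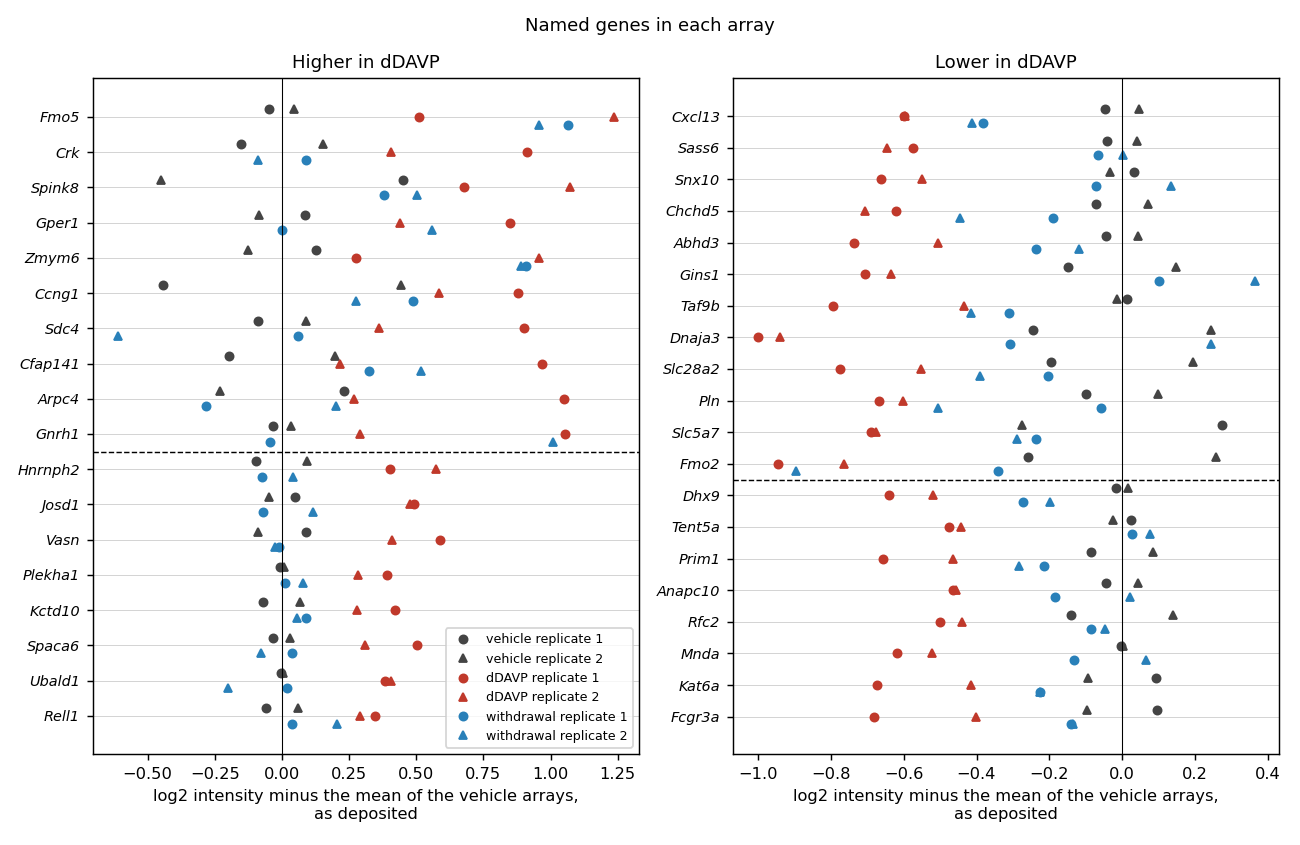
Log2 intensity in each array minus the mean of the vehicle arrays, as deposited (x axis), of the genes named by rank as higher (left) and lower (right) in dDAVP; colour marks the group, shape the replicate, and the dashed line parts genes ranked as deposited (above) from those ranked after cyclic loess (below). The lower genes and the higher genes below the line have dDAVP arrays close together, while most of the higher genes above the line have 1 dDAVP array far from the other. Where genes were taken by smallest p, the choice favoured arrays close together.

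The 10 genes with the brightest vehicle signals were Aqp2, S100a10, Mt2A, Ldha, Actg1, Akr1b1, Rps20, Eef1a1, Oaz1 and Rps3, and their differences ran from -0.09 to 0.16. Their standard errors were 0.09 to 0.13. Ldha, lactate dehydrogenase A, was at 13.04 and 13.16 in vehicle and 13.32 and 13.21 in dDAVP (0.16 ± 0.10), and Eef1a1, an elongation factor, differed by 0.11 ± 0.10. The difference of dDAVP against vehicle and the values of the withdrawal arrays can be read side by side, but any contrast of withdrawal with dDAVP shares the dDAVP arrays with the one described here.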

How the data were processed

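The submitters measured 6 arrays in 3 groups of 2. Per the submitters' processing notes the method was RMA. The authors deposited linear intensities, 1 per probe set and array (30.2 to 10778.7). The log2 of each was taken. RMA normalizes probe intensities between arrays, so a change shared by most genes would be reduced. Genome build and RMA version: not given in the sources used here.

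Of 28524 probe sets, 14947 carried 1 gene symbol in the array's annotation, 318 several and 13259 were not listed. Genes with several probe sets were represented by the one with the highest mean, with no filter on dim genes. The Entrez numbers of 14916 were found in RefSeq (GRCr8), which changed 0 symbols. Promoter sequences are from RefSeq, GRCr8.

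limma 3.58.1 in R 4.3.3 fitted 1 mean per group to all 6 arrays (3 residual and 3.21 prior degrees of freedom, two-sided, Benjamini-Hochberg over 14168 genes). Differences are dDAVP minus vehicle ± the moderated SE. Cyclic loess used all probe sets. Arrays of the same number did not pair. Their deviations correlated at -0.62 between vehicle and dDAVP, 0 between vehicle and withdrawal, and -0.11 between dDAVP and withdrawal. Simulated arrays of 14168 genes were tested at an adjusted p under 0.05. Of genes changed by 0.58 log2 14% were recovered, of those changed by 1 60%, by 2 98% and by 3 96%. Of the unchanged genes 9 were called. The simulated noise was independent between arrays, with no shift over all genes and no likeness of arrays across groups. These rates therefore need not hold for the arrays described here, where the largest difference, 2.29 in Ypel4, did not pass.

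Of 1839 members of 58 lists 1592 were measured. Members and lists were chosen with earlier results of these data known. By rank, up to 12 genes each way were named (smallest p, at least 1.5-fold apart, groups without overlap), 8 each way after loess (at least 1.3-fold), up to 4 per list, a set of 10 transport genes and the 10 brightest in vehicle. Unnamed loci, receptors of smell and microRNAs were left out. The number of arrays limits the precision.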

Additional observations from a re-analysis of the deposited data

How the results depend on the processing

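The count of genes past an adjusted p of 0.05 was 0 in the main analysis (81 genes higher, 971 lower by unadjusted p under 0.05) and in every alternative listed at the outset but one: without dDAVP replicate 1 it was 2, Ypel4 and Fam111a, named after their values were seen, so leaving out single arrays gave 0 to 2. Leaving out single arrays gave 7 to 95 genes at least 1.5-fold higher and 27 to 275 lower at an unadjusted p under 0.05 (main 6 and 25), 59 to 252 higher and 299 to 1501 lower at an unadjusted p alone, and a median over all genes of -0.15 to -0.09. The highest 1.5-fold counts, 95 and 275, came without dDAVP replicate 2. Without vehicle replicate 1 they were 10 and 90, without vehicle replicate 2 they were 18 and 70, and without dDAVP replicate 1 they were 21 and 44. Leaving out either withdrawal array gave 576 lower at an unadjusted p. Where 1 array of a group remained it was assumed to vary like the other groups.

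With cyclic loess 8 genes were at least 1.5-fold lower, at an unadjusted p 251 were higher and 215 were lower, and the median was -0.01. Subtracting array medians gave 23 and 5 at 1.5-fold, 578 higher and 95 lower, and a median of 0.04. Quantile normalization gave 9 lower at 1.5-fold, 212 higher and 231 lower, and a median of -0.01. Leaving out the dimmest genes gave 51 higher, 293 lower and a median of -0.07. Only the 4 arrays compared gave 576 lower. The replicate block gave 45 higher and 445 lower. An intensity trend in eBayes gave 50 higher and 1601 lower. Without vehicle replicate 1 and dDAVP replicate 2 the counts were 45 and 196 at 1.5-fold and 146 higher at an unadjusted p. Since same-numbered arrays of vehicle and dDAVP deviated in opposite directions, a crossed pairing was added after seeing the data. It set vehicle replicate 1 beside dDAVP replicate 2. It gave 43 genes past an adjusted p of 0.05, 19 and 47 at 1.5-fold, and 381 higher and 2620 lower at an unadjusted p. That pairing was picked because these arrays deviated alike, and such a choice makes the residual spread small. The 43 genes are therefore no support for a difference. The cause of these moves was not tested, apart from the fewer genes or arrays that some alternatives fit.

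Of 124 named genes followed through the alternatives 119 kept their direction in all of them. Most of the 124 had been named for a small p on these same arrays, many also for groups without overlap. That choice favoured a kept direction, so the count of 119 is no measure of robustness. The 5 genes with a turned sign were Aqp4, Slc14a1, Slc14a2, Scnn1b and Sgk1, all from the set of transport genes. Aqp4 turned to 0.13 with array medians subtracted, and without single arrays it ran from -0.32 to 0.28. Slc14a2 turned to 0.00 with cyclic loess, 0.15 with array medians subtracted and 0.01 with quantile normalization, and ran from -0.38 to 0.37 without single arrays. Without single arrays Slc14a1 ran from -0.01 to 0.61, Scnn1b from -0.39 to 0.05 and Sgk1 from -0.13 to 0.33. With 2 arrays a group and no detection calls used, how far dim genes lay above background is unknown.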

Other observations

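The 13577 probe sets without a single symbol, which stood in no comparison of the report, had a median log2 difference of -0.12. At least 1.5-fold apart and without overlap between the groups were 40 of them higher (0.295%) and 53 lower (0.390%) in dDAVP. Among the 14168 named genes the counts were 10 (0.0706%) and 34 (0.240%).

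The cAMP response element TGACGTCA, the site of the factors that protein kinase A activates, was searched in the same promoter windows, and its letters read the same on both strands. It stood in 1.83% of 33469 windows and in 296 of 11697 measured genes with a window. The median over these 296 genes was -0.09 (-0.01 after loess), against -0.11 (-0.01 after loess) for the genes without it. Among 23 immediate early genes with a window 5 held it, with a median of 0.11 as deposited, the same as the 0.11 of the other members.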
